A study of Mus musculus with 2 samples.

Results

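The Hox genes are 39 homeobox genes of the mouse that lie in 4 complexes, Hoxa on chromosome 6, Hoxb on chromosome 11, Hoxc on chromosome 15 and Hoxd on chromosome 2. The members are the rows of the deposited count matrix whose symbol is Hoxa, Hoxb, Hoxc or Hoxd followed by a number only, and they number 39 of 32285 genes. There are 11 Hoxa genes. On mm10 the 10 Hoxb genes span chr11:96194316-96368256, the 9 Hoxc genes chr15:102921103-103036852 and the 9 Hoxd genes chr2:74668310-74765142. In the kept cells 38 of the 39 had at least 1 UMI (unique molecular identifier, a tag counted once per captured RNA molecule). The exception was Hoxb13, which had 0. The 39 genes held 32149 UMIs together, and the count per gene ran from 0 to 4866, with a median of 215. At least 100 UMIs were counted for 28 of them.

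Hox genes encode transcription factors that give cells along the body and limb axes their positional identity. Their order along the chromosome follows the order in which they act: low paralogue numbers are used toward the head and high numbers toward the tail and the end of the limb. In the limb, the posterior genes, which belong to paralogue groups related to the fly gene Abdominal-B, pattern the upper segment, the middle segment and the autopod in turn, and adult and juvenile fibroblasts are known to keep a Hox profile of the place they came from. Here groups 1 to 4 are called anterior, groups 5 to 8 central and groups 9 to 13 posterior.

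The cells came from the knees of hindlimbs of male and female mice on postnatal day 7, freed of skin and paws and treated with collagenase II (4 mg/mL) over 6 h. The labels name 2 genotypes, wild type (Col12a1 wt gene+) and Col12a1 knockout (Col12a1 KO gene+, which lacks the gene of collagen XII). They describe 2 experiments, with 1 and then 2 libraries per genotype, merged into the 1 matrix that was deposited. Barcodes end in 1 or 2, which gives barcode sets 1 and 2, and nothing ties a set to a genotype or to an experiment. So the matrix counts as a single sample with both genotypes in it, no comparison of wild type with knockout was made, and no p-value is given. The sources used here do not say how the knockout allele was made or how many pups were pooled.

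A cell was kept if it had 500 genes or more, 1000 UMIs or more and no more than 10% of UMIs from mitochondrial genes, which left 15170 of 24203 barcodes, 7157 in set 1 and 8013 in set 2. Their median depth was 10146 UMIs, 10959 in set 1 and 9623 in set 2. Of the barcode sequences, 40 occurred in both sets, 14 of them among kept cells. Clustering without the Hox genes gave 32 clusters, of which 29 could be named from marker genes. Names are given as class-like, for example fibroblast-like. The 5 connective tissue-like classes are fibroblast-like (2315 cells), chondrocyte-like (1377), tenocyte-like or ligament fibroblast-like (860, tenocyte-like from here on), osteoblast-like (314) and synovial lining fibroblast-like (159). Together they hold 5025 cells, and the 7 haematopoietic classes, called blood-like, hold 6044. A cluster of 1569 cells led by Il1rl1, one of 295 cells led by Ppbp and one of 193 cells led by Dnah12 stayed unnamed. Each synovial lining marker was present in the class of that name, all 6 of 6, with a summed level of 26706 CPM in set 1 and 19951 in set 2. Doublets were sought with Scrublet, which marked 3 of 7160 set 1 cells and 1 of 8014 set 2 cells, so the caller had not worked. A doublet score was therefore used only in added checks. Haemoglobin and other erythroid genes summed to 6668 CPM in the connective tissue-like cells and to 411653 CPM in the erythroid-like cells.

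Levels are given as CPM, the UMIs of a gene per 1000000 UMIs of all cells of a class, with the exact Poisson 95% interval in brackets where it is shown. Ratios of levels carry an exact conditional binomial interval and shares an exact Clopper-Pearson interval. These intervals cover counting error only, not the spread between pups. A gene was called higher or lower between classes when both sides together held at least 100 UMIs, the ratio was at least 2 or at most 0.5, its interval left out 1 and both barcode sets had the same direction. Tags were read from the 3' end, 1 per molecule, so CPM is not divided by gene length, and differences in capture between genes were not corrected. Of the 39 genes, 11 overlap another gene on the same strand, 4 in Hoxa, 5 in Hoxc and 2 in Hoxd, so their counts are uncertain.

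Promoter sequence was at hand for 22 of the 39 genes, as 24 windows of 250 bases upstream of a RefSeq start on GRCm38.p6. The windows below are shown for the gene that differed most between endothelial-like and connective tissue-like cells (Hoxb8) and for 3 genes that were higher in synovial lining fibroblast-like cells (Hoxd10, Hoxa13 and Hoxa11). Capitals mark matches to 4 motifs searched on both strands: TATAAA (the TATA box), TTTATG (a core bound by posterior Hox and Cdx proteins), TGACAG (a core bound by Meis proteins) and TGATTNAT (a site shared by Pbx and Hox proteins).
Hoxb8, chr11:96281655-96281904, plus strand: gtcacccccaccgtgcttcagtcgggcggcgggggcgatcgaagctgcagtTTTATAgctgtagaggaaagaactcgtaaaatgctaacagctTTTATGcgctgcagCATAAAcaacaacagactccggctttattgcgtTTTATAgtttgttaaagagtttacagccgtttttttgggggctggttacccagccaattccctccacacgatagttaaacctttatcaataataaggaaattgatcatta
Hoxd10, chr2:74691641-74691890, plus strand: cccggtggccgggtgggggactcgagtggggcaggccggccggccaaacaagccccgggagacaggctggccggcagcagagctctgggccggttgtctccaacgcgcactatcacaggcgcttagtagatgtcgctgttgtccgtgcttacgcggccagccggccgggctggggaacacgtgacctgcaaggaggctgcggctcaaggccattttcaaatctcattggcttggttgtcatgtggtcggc
Hoxa13, chr6:52260881-52261130, minus strand: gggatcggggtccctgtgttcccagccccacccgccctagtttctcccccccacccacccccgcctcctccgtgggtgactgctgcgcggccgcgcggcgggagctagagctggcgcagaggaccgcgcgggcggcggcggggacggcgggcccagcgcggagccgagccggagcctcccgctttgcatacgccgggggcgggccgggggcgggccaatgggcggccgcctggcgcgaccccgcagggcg
Hoxa11, chr6:52245811-52246060, minus strand: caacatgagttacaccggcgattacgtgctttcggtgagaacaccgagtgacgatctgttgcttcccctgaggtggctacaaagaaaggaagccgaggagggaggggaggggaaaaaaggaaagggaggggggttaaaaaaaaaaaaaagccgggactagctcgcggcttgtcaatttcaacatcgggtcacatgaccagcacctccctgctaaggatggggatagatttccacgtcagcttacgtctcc

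The Hoxb8 window held 2 TATAAA and 2 TTTATG matches that do not overlap each other, and the other 3 windows held none of the 4 motifs. Across the Hox windows, TATAAA was found in 4 of 24, TTTATG in 5, TGACAG in 2 and TGATTNAT in 2. Among all 32851 promoter windows of the same length the shares were 12.4%, 10.8%, 15.9% and 2.82%. The Hox windows had a median of 12.5 CpG dinucleotides against 6 over all windows, and Hoxa13 had the most of the 24, with 35. A match is a description of the letters and says nothing of binding.

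The connective tissue-like cells of the knee held a Hox profile dominated by the posterior groups of the Hoxa and Hoxc complexes. All Hox genes together reached 184 CPM [182 to 187], 161 in set 1 and 209 in set 2. The level depends on the pool: posterior genes summed to 122.7 CPM, and to 112.6 with the unnamed Il1rl1 cluster added. Across the alternative settings that sum ran from 105.6 to 140.1 CPM. Posterior genes made up 66.5% of all Hox UMIs of the main pool (65.8 to 67.2%), central genes 23.4% and anterior genes 10.1%. The posterior share was 65.7% in set 1 and 67.2% in set 2. Hoxc genes gave 47.3% of the Hox UMIs, Hoxa genes 38.5%, Hoxd genes 10.8% and Hoxb genes 3.38%. By paralogue group, group 10 was the most abundant at 59.2 CPM, then group 9 at 46.8, group 8 at 17.3 and group 11 at 15.2. Group 13 was at 1.57 CPM and group 12 at 0.0102 CPM, a single UMI.

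**Figure D1:**
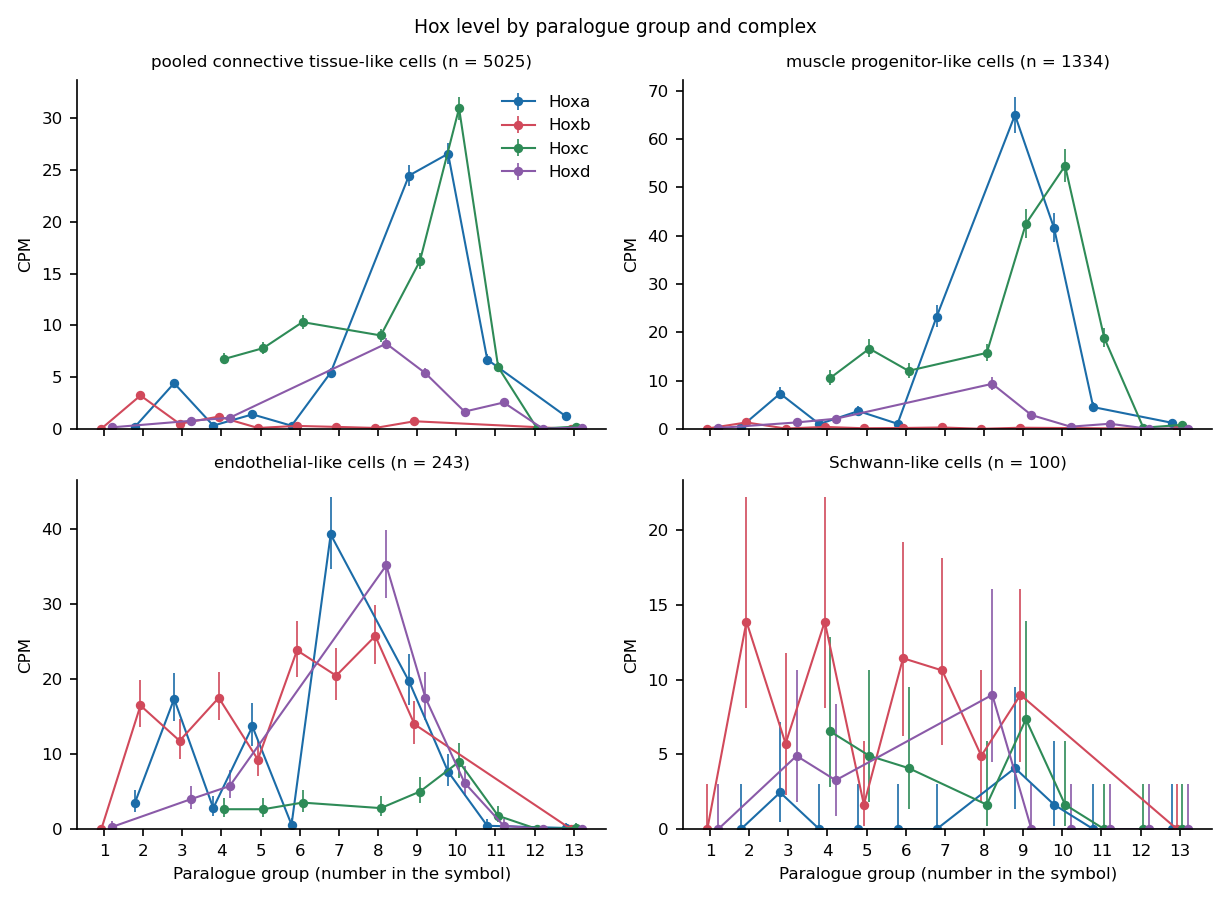
CPM (vertical axis) of 38 Hox genes against their paralogue group (horizontal axis), with 1 line per complex and panels for connective tissue-like, muscle progenitor-like, endothelial-like and Schwann-like cells; bars are exact Poisson 95% intervals. In connective tissue-like cells the Hoxa and Hoxc lines peak at groups 9 and 10, and in endothelial-like cells the Hoxb line rises to 25.7 CPM at group 8.

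Within the Hoxa complex, Hoxa10, a gene that patterns the upper limb segment and the uterus, stood at 26.6 CPM [25.6 to 27.6], 23.05 in set 1 and 30.1 in set 2. Its neighbour Hoxa9, which acts with Hoxd9 in the limb and is also a regulator of blood progenitors, was at 24.5 CPM, 19.3 in set 1 and 29.7 in set 2. Hoxa11, needed for the lower arm and leg, was at 6.69 CPM, 5.31 in set 1 and 8.09 in set 2. These 3 genes had the most UMIs of their complex, and each was higher in set 2 than in set 1. Hoxa13, a gene of hand and foot identity, was at 1.23 CPM, 0.875 in set 1 and 1.59 in set 2.

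In the Hoxc complex, whose posterior genes are used in the hindlimb, Hoxc10 was the most abundant Hox gene of the connective tissue-like cells, at 31.0 CPM [29.9 to 32.1], 27.4 in set 1 and 34.6 in set 2. Hoxc9, a gene of trunk and hindlimb levels, followed at 16.2 CPM, 13.9 in set 1 and 18.6 in set 2. Hoxc6, a central gene used in thoracic mesoderm, was at 10.3 CPM, 9.09 in set 1 and 11.5 in set 2. Hoxc11, Hoxc12 and Hoxc13 were each below Hoxc10. Hoxc11, a hindlimb gene of the middle segment, was at 5.95 CPM, 5.19 in set 1 and 6.73 in set 2. Hoxc13, best known in hair and nails, had 21 UMIs (0.215 CPM), and Hoxc12 had 0 of the 97585531 UMIs of these cells, which allows a level of up to 0.0307 CPM.

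The Hoxd complex, which drives limb outgrowth in the embryo, was lower. Hoxd8, a central gene, led it with 8.23 CPM, 8.06 in set 1 and 8.40 in set 2. Hoxd9, a gene of the upper limb segment, was at 5.37 CPM, 5.23 in set 1 and 5.51 in set 2. Hoxd11, which acts with Hoxa11 in the middle segment, was at 2.54 CPM, 2.62 in set 1 and 2.46 in set 2. Unlike the Hoxa genes, these 3 had nearly equal levels in both sets. Hoxd10 was at 1.66 CPM, 1.89 in set 1 and 1.42 in set 2. Hoxd13, the gene mutated in synpolydactyly, had 12 UMIs, and Hoxd12 had 1.

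The Hoxb complex, used mainly in the trunk, hindbrain and blood, had few UMIs in these cells. Hoxb2, a hindbrain gene, had the highest level at 3.22 CPM, 2.93 in set 1 and 3.51 in set 2. Hoxb4, which marks blood progenitors among other cells, was at 1.18 CPM, 1.10 in set 1 and 1.26 in set 2. Hoxb9, the most posterior Hoxb gene detected, was at 0.728 CPM, 0.590 in set 1 and 0.867 in set 2. The run from Hoxb4 to Hoxb9 summed to 2.53 CPM, 2.07 in set 1 and 2.99 in set 2. Hoxb1 had 1 UMI, Hoxb5 and Hoxb8 had 8 each, and Hoxb13 had 0.

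**Figure D2:**
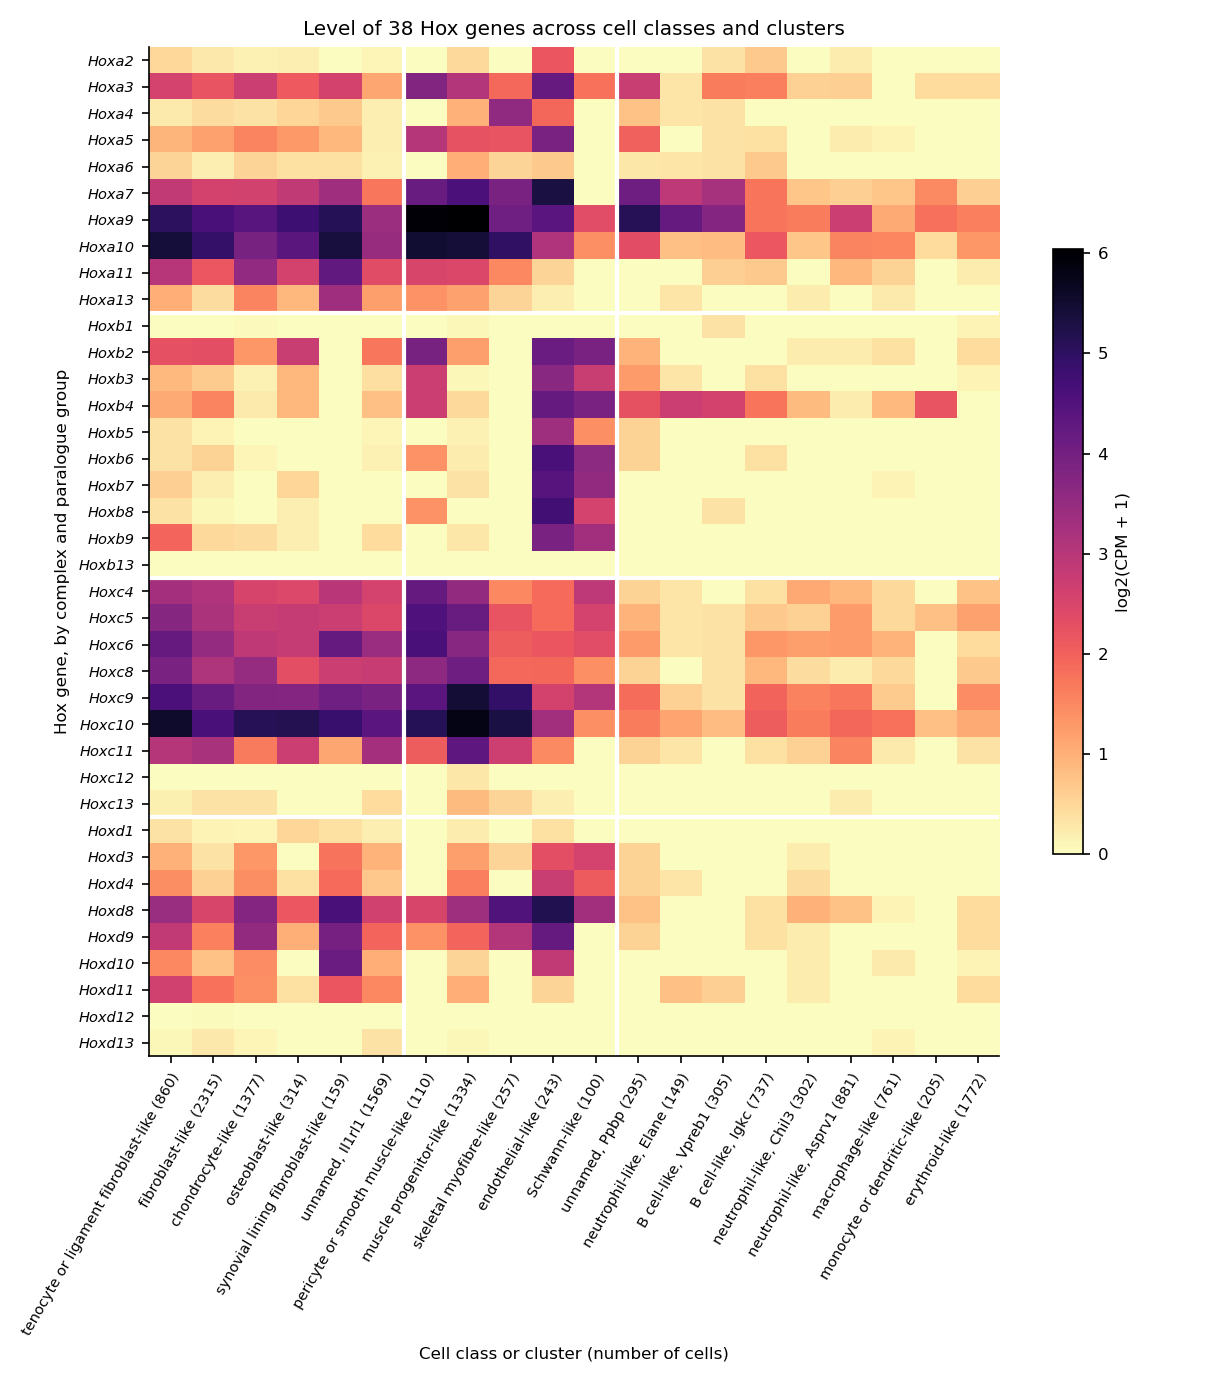
Level of 38 Hox genes (rows, by complex and paralogue group) in the named classes and in chosen clusters (columns, with the number of cells), shaded by log2(CPM + 1); mast cell-like and T or NK cell-like cells are not drawn. The posterior Hoxa and Hoxc rows are dark in connective tissue-like and muscle progenitor-like columns, the Hoxb4 to Hoxb9 rows in the endothelial-like column, and most blood-like columns are pale apart from Hoxa7, Hoxa9 and Hoxb4.

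The blood-like cells of the same digest give the level of the named haematopoietic classes. The unnamed cluster led by Ppbp, with 295 cells and 341 Hox UMIs of 4227588, is not in this pool. It had the highest Hoxa9 and Hoxa7 levels of the haematopoietic clusters, given below. How its absence moves the ratios was not tested. Connective tissue-like cells were called higher for 20 of 21 tested Hox genes and lower for 0. Over all 15722 genes tested, 31.5% were called higher and 20.3% lower. Of the 21 genes, Hoxa9 alone had 100 UMIs or more in blood-like cells (227), and the others reached the minimum through the connective tissue-like cells, so the count of 20 is no support for the pattern. The median log2 ratio was 4.04 over the 21 Hox genes and 0.31 over all genes. The posterior genes summed to 123 CPM in connective tissue-like cells and 9.79 CPM in blood-like cells. With the cells of the highest 6% of doublet scores taken out, the blood-like value was 4.21 CPM and the connective tissue-like value 122.70 CPM, while Col1a1, the collagen I gene that blood cells lack, went from 596 to 112 CPM in the blood-like cells. The share of the blood-like Hox UMIs that comes from mixed barcodes or free RNA was not tested further.

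The largest ratio was that of Hoxd9, 5.37 CPM against 0.107 CPM, or 50.2-fold [22.9 to 137], 54.0-fold in set 1 and 46.0-fold in set 2. Hoxc10 stood at 31.0 against 1.73 CPM, 17.9-fold [14.6 to 22.1], and Hoxa10 at 26.6 against 1.59 CPM, 16.7-fold [13.5 to 20.9]. The smallest ratios were those of Hoxa9, 24.5 against 4.05 CPM (6.04-fold [5.27 to 6.95]), and of Hoxa7, a central gene also used in blood progenitors, 5.43 against 1.66 CPM (3.27-fold [2.62 to 4.13]). Hoxa7 lost its call at a clustering resolution of 0.5 (1.83-fold) and of 2 (1.94-fold). Hoxb4 was the one tested gene without a call, at 1.18 against 1.44 CPM.

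Each connective tissue-like class was then set against the other 4. In every class the 2 highest genes were 2 of Hoxc10, Hoxa10 and Hoxa9, none of which was called higher in any class. Among the 3, Hoxa10 in chondrocyte-like cells was the one call, and it was lost in 10 of the alternative settings.

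**Figure D3:**
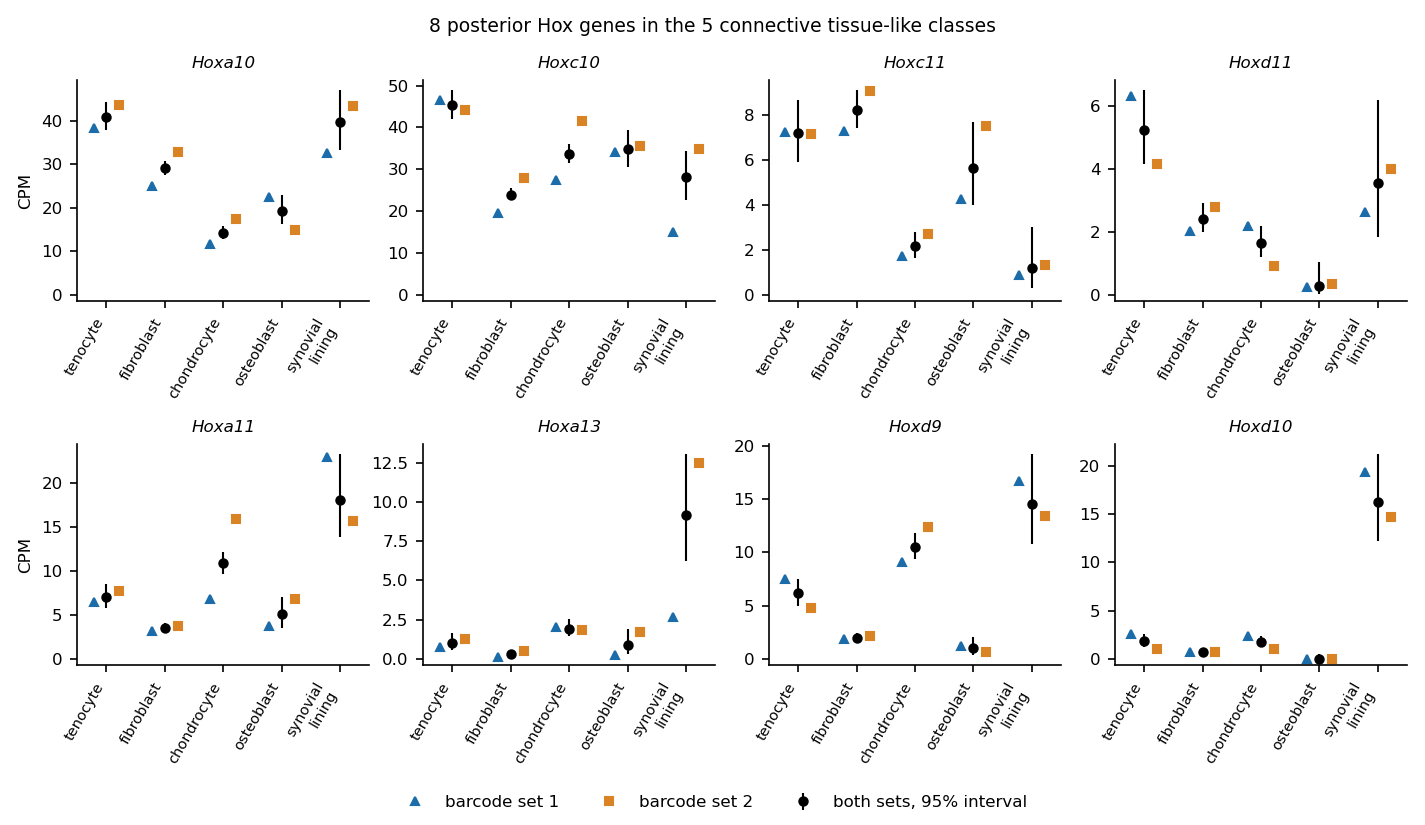
CPM (vertical axes) of 8 posterior Hox genes in the 5 connective tissue-like classes (horizontal axes); black points with bars are both sets together with the exact Poisson 95% interval, triangles are set 1 and squares set 2. Hoxa13 and Hoxd10 stand out in the synovial lining fibroblast-like cells, at 9.17 and 16.3 CPM.

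The synovial lining fibroblast-like cells, which line the joint cavity and make the lubricant Prg4, were called higher for 6 of 21 tested Hox genes and lower for 3, against 9.40% and 17.6% of all 14060 genes tested. Hoxd10, a gene of the limb's middle levels, was at 19.4 CPM in set 1 and 14.7 in set 2, and at 16.3 CPM jointly against 1.14 CPM in the other classes, 14.3-fold higher [10.2 to 20.02]. Hoxa13 was at 2.64 CPM in set 1 and 12.5 in set 2, and at 9.17 against 0.945 CPM jointly, 9.71-fold higher [6.24 to 14.8]. Its ratio was 3.17-fold in set 1 and 11.8-fold in set 2, so its size differed between the sets while its direction did not. In this class Hoxd10 had 55 UMIs and Hoxa13 had 31. Hoxa13 and Hoxd4 reached the minimum of UMIs only with this class counted. Hoxa11, Hoxd8, Hoxd9 and Hoxd10 reached it in the other classes alone. The 3 lower genes reached it through the other classes, so the counts of 6 and 3 are no support for the pattern.

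Among the other genes of this class, Hoxa11 stood at 18.1 against 6.28 CPM (2.87-fold [2.17 to 3.74]), with 22.9 CPM in set 1 and 15.6 in set 2. Hoxd8 was at 23.4 against 7.69 CPM (3.04-fold [2.38 to 3.84]) and Hoxd9 at 14.5 against 5.04 CPM (2.88-fold [2.10 to 3.86]). Hoxd4, a hindbrain and trunk gene, was at 2.66 against 1.01 CPM, with 9 UMIs in the class. The group 11 gene of the Hoxc complex went the other way: Hoxc11 was at 1.18 against 6.12 CPM, 5.17-fold lower [2.01 to 19.1]. No Hoxb gene had a UMI in these cells, so Hoxb2 was at least 3.75-fold lower and Hoxb4 at least 1.37-fold lower, counted against a floor of 3 counts. Its 2 highest genes were Hoxa10 at 39.7 CPM and Hoxa9 at 34.3 CPM. The class is a single cluster of 159 cells.

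The chondrocyte-like cells, the cartilage cells of the joint, were called higher for 4 and lower for 4 of 21 Hox genes, against 9.08% and 21.2% of all genes. Hoxd9 was at 9.09 CPM in set 1 and 12.3 in set 2, and at 10.53 against 3.41 CPM jointly, 3.09-fold higher [2.59 to 3.68]. Hoxa11 was at 6.81 CPM in set 1 and 15.9 in set 2, 10.8 against 5.12 CPM jointly, 2.11-fold higher [1.81 to 2.47]. Hoxa13 (1.93 against 0.962 CPM) and Hoxd4 (1.67 against 0.834 CPM) were each 2.01-fold higher, just past the threshold, and Hoxa13 was 5.27-fold higher in set 1 but 1.23-fold in set 2. Hoxc11 was at 2.16 against 7.40 CPM, 3.43-fold lower [2.61 to 4.58]. Hoxa10 was at 14.2 against 31.3 CPM, 2.19-fold lower [1.97 to 2.45], with 11.8 CPM in set 1 and 17.4 in set 2. In 10 alternative settings its ratio was 0.507 to 0.568 and missed the threshold. Hoxb2 (2.60-fold) and Hoxb4 (8.36-fold, 5 UMIs) were the other lower genes. Hoxa13 and Hoxd4 reached the minimum of UMIs only with this class counted. Hoxb4 reached it through the other classes, so the counts of higher and lower genes are no support for the pattern. The class's highest genes were Hoxc10 at 33.7 CPM and Hoxa9 at 20.2 CPM. Hoxa11 was not called here in cells with at least 1000 genes (1.90-fold), at resolution 2 (1.90-fold) or without set 2 (1.47-fold).

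The fibroblast-like cells made up the largest class and were called higher for 2 and lower for 6 of 21 Hox genes, against 10.3% and 12.2% of all genes. Hoxc11 was at 7.28 CPM in set 1 and 9.06 in set 2, 8.21 against 4.03 CPM jointly, 2.04-fold higher [1.72 to 2.43]. This call was lost at resolution 2 (1.69-fold), with called doublets kept (1.86-fold), after new clustering without the highest 6% of doublet scores (1.84-fold) and with the Il1rl1 cluster added (1.48-fold). Hoxb4 was at 1.94 against 0.532 CPM, 3.64-fold higher [2.35 to 5.79]. Of its 115 UMIs in the 5 classes, 87 were in this class. So Hoxb4 reached the minimum of UMIs only through the side where it was high, and the count of 2 is no support for the pattern. The lower genes were Hoxa11 (3.49 against 9.42 CPM), Hoxa13 (0.334 against 1.99 CPM), Hoxd4, Hoxd8, Hoxd9 (2.00 against 8.24 CPM) and Hoxd10 (0.712 against 2.47 CPM). Their ratios ran from 2.38-fold lower for Hoxd8 to 5.97-fold lower for Hoxa13. Hoxa13, Hoxd9 and Hoxd10 reached the minimum of UMIs through the other classes, so the count of 6 is no support for the pattern. The class's highest genes were Hoxa10 at 29.1 CPM and Hoxc10 at 23.97 CPM. Each class is compared with the rest of the same 5, so a gene that is high in a large class is low in the comparison of another.

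The tenocyte-like cells, which build tendon and ligament, were called higher for 1 and lower for 0 of 21 Hox genes, against 5.54% and 10.6% of all genes. The gene was Hoxd11, at 6.32 CPM in set 1 and 4.15 in set 2, and 5.24 against 2.03 CPM jointly, 2.58-fold higher [1.95 to 3.38]. This call was lost with at least 1000 genes and 2000 UMIs (1.64-fold) and at resolution 2 (1.82-fold). It was also lost with 15 principal components (1.67-fold) and without set 1 (1.94-fold). The 2 highest genes of the class were Hoxc10 at 45.4 CPM, 46.6 in set 1 and 44.2 in set 2, and Hoxa10 at 40.9 CPM, 38.2 in set 1 and 43.7 in set 2. The level of all Hox genes was 257.8 CPM, nearly equal in set 1 (257.4) and set 2 (258.2).

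The osteoblast-like cells, which lay down bone, were called higher for 0 and lower for 6 of 21 Hox genes, against 6.04% and 13.5% of all genes. Hoxd genes were 5 of the 6. Hoxd10 had 0 UMIs in this class and was at least 4.13-fold lower, against 1.79 CPM elsewhere. Hoxd9 was at 1.01 against 5.70 CPM, 5.65-fold lower [2.72 to 14.1]. Hoxd8 was at 3.46 against 8.59 CPM, 2.48-fold lower [1.66 to 3.90], and Hoxc8, a trunk gene, at 3.89 against 9.41 CPM. Hoxd4 and Hoxd11 had 2 UMIs each. The 6 lower genes reached the minimum of UMIs through the other classes, so that count is no support for the pattern. Hoxc10 was at 34.8 CPM and Hoxa9 at 26.4 CPM. The calls of this class depended on how it was clustered: at a Leiden resolution of 0.5, where no tenocyte-like class was named, Hoxd11, Hoxd4 and Hoxc8 were 1.73, 1.40 and 1.29 times the level of the others.

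Hoxc10 lay between 23.97 CPM in fibroblast-like and 45.4 CPM in tenocyte-like cells across the 5 classes and was called in none. Hoxd13 had 9 UMIs in fibroblast-like, 2 in chondrocyte-like, 1 in tenocyte-like and 0 in osteoblast-like and synovial lining fibroblast-like cells. Hoxc13 had at most 12 UMIs in any of the 5.

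Clusters of 1 class differed as well. Pairs of clusters were compared after their values had been seen, so the counts describe these clusters. The fibroblast-like class has a cluster led by Abca8a, Ebf2 and Cd248 (1316 cells, median 15594 UMIs) and one led by Csf2, Cxcl5 and Ptx3, genes of inflammatory signalling and recruitment (999 cells, median 17029 UMIs). The Abca8a cluster was higher for 10 of 15 tested Hox genes and lower for 0, against 30.4% and 10.6% of all 11920 genes tested. Hoxa9, Hoxa10, Hoxc9 and Hoxc10 reached the minimum of UMIs in the Csf2 cluster alone, with 118, 204, 216 and 206 UMIs. Hoxa7, with 186 UMIs in the Abca8a and 38 in the Csf2 cluster, passed it through the Abca8a side, and so did Hoxa3. The side through which the other called genes passed is not given here, and the count of 10 is no support for the pattern. Hoxa9 was at 37.6 CPM in set 1 and 44.4 in set 2 of the Abca8a cluster, and at 4.74 and 5.86 CPM in the Csf2 cluster, 7.93-fold higher [6.54 to 9.68] jointly. Hoxa10 was at 49.2 against 9.08 CPM, 5.42-fold higher [4.66 to 6.32], and Hoxc10 at 38.8 against 9.17 CPM, 4.23-fold higher [3.63 to 4.95]. Hoxa3, an anterior gene, was at 6.46 against 0.801 CPM, 8.06-fold higher [4.92 to 13.98]. For each of these 4 genes both sets of the Abca8a cluster were above both sets of the Csf2 cluster. The hindlimb gene Tbx4 was also higher in the Abca8a cluster, at 12.9 against 1.60 CPM. Pitx1 was at 19.2 against 15.04 CPM, with no call.

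Among chondrocyte-like cells, the cluster led by Msmp, Cytl1 and Prg4 (718 cells), with articular cartilage genes, was set against the cluster led by Matn1, Snorc and Matn3 (659 cells), with genes of growth cartilage. It was higher for 6 of 13 tested Hox genes and lower for 0, against 6.61% and 5.12% of all 10414 genes tested. Of the called genes, Hoxc10 reached the minimum of UMIs in the Matn1 cluster alone, with 307 UMIs. Hoxd9 passed it through the Msmp cluster, where it was high. The side through which the other called genes passed is not given here, and the count of 6 is no support for the pattern. Hoxd9 was at 12.1 CPM in set 1 and 21.9 in set 2 of the Msmp cluster, and at 6.30 and 2.40 CPM in the Matn1 cluster, 3.59-fold higher [2.70 to 4.82] jointly. The set ratios were far apart, 1.92-fold and 9.15-fold. Hoxc10 was at 45.2 against 22.5 CPM, 2.01-fold higher [1.75 to 2.31]. The other 4 were Hoxc4, Hoxc5, Hoxc6 and Hoxd8, at 2.44 to 2.71 times the level of the Matn1 cluster. Hoxa10, at 19.1 against 9.55 CPM, just missed the threshold.

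**Figure D4:**
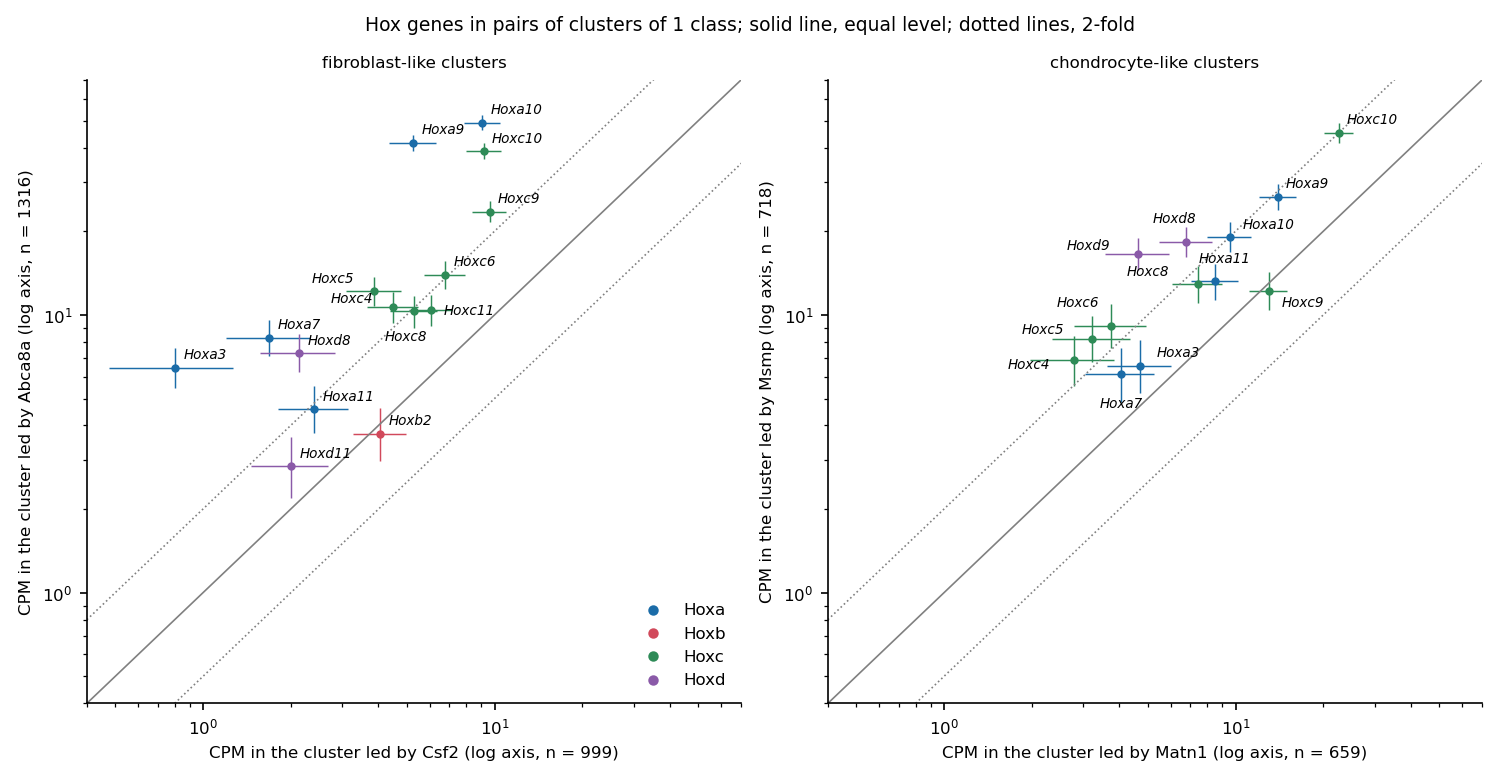
CPM of the tested Hox genes on log axes, at left in the Abca8a cluster (vertical) against the Csf2 cluster (horizontal), at right in the Msmp cluster (vertical) against the Matn1 cluster (horizontal); bars are exact Poisson 95% intervals, the solid line marks equal levels and the dotted lines 2-fold. At left 10 of 15 genes lie above the upper dotted line, with Hoxa9 at 41.6 against 5.25 CPM.

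Muscle progenitor-like cells, the Pax7 and Myod1 lineage that repairs and builds muscle, held a higher level of posterior Hox RNA than connective tissue-like cells. Their posterior genes summed to 195 CPM in set 1 and 252 in set 2, 234 CPM jointly against 123 CPM. They were called higher than connective tissue-like cells for 6 and lower for 4 of 21 Hox genes, against 15.3% and 19.7% of all 14758 genes tested. The 4 lower genes reached the minimum of UMIs through the connective tissue-like cells. Their share of the 21, 19.0%, is near the background, so the count of 4 is no result about the Hox genes. Hoxa9 was at 52.1 CPM in set 1 and 71.1 in set 2, 64.996 against 24.5 CPM jointly, 2.66-fold higher [2.48 to 2.85]. Hoxc9 was at 42.5 against 16.2 CPM, 2.62-fold higher [2.40 to 2.86]. Hoxc11, a hindlimb gene of group 11, was at 18.9 against 5.95 CPM, 3.17-fold higher [2.76 to 3.62], and Hoxa7 at 23.2 against 5.43 CPM, 4.28-fold higher [3.76 to 4.87]. Hoxa5 and Hoxc5, both of paralogue group 5, were 2.63-fold and 2.13-fold higher. Lower were Hoxb2 (2.45-fold), Hoxb4 (3.07-fold), Hoxd10 (3.79-fold, 8 UMIs) and Hoxd11 (2.44-fold). Hoxc10 was at 54.5 CPM, 52.8 in set 1 and 55.3 in set 2. Col1a1 was at 1061 CPM in these cells, and at 337 CPM without the highest 6% of doublet scores, where their posterior level was 238 CPM.

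Among the 3 muscle progenitor-like clusters, the one with Myog and Mymk, genes of fusing myoblasts (321 cells), had Hoxc10 at 25.0 CPM. The Pax7 and Fgfr4 cluster (767 cells) had it at 59.2 CPM, and the cluster led by histone genes of dividing cells (246 cells) at 72.5 CPM. Hoxa9 lay between 58.6 and 69.1 CPM in all 3. Neither difference was tested.

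Skeletal myofibre-like cells, mature muscle with a median of 3404 UMIs per cell, were called higher than connective tissue-like cells for 2 and lower for 7 of 21 Hox genes. Over all 14202 genes tested, 9.41% were higher and 57.8% lower. The median log2 ratio was -0.28 over the 21 Hox genes and -1.45 over all genes tested, so most genes were lower by this measure. The 7 lower Hox genes reached the minimum of UMIs through the connective tissue-like cells, so that count is no support for the pattern. Hoxd8 was at 21.8 against 8.23 CPM, 2.65-fold higher [1.94 to 3.55], and Hoxa7 at 13.6 against 5.43 CPM, 2.51-fold higher [1.68 to 3.63], though 1.31-fold in set 2. Their highest Hox genes were Hoxc10 at 38.7 CPM, 38.6 in set 1 and 38.7 in set 2, and Hoxa10 at 30.9 CPM. Lower were Hoxa11, Hoxc4, Hoxc5, Hoxc6 and Hoxc8, at 2.14-fold to 3.71-fold, and Hoxb2 and Hoxd11, which had 0 UMIs. Hoxc5 lost its call in 10 alternative settings, with ratios of 0.511 to 0.792, and Hoxc6 in 6, with ratios of 0.509 to 0.606. Without set 2, 1 of the 7 lower calls was left. No Hoxb gene had a UMI in these 257 cells.

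Endothelial-like cells, which line vessels, carried a different Hox profile. Their Hox genes summed to 342 CPM, 343 in set 1 and 341 in set 2, and Hoxb genes gave 40.6% of those UMIs, 37.8% in set 1 and 42.9% in set 2. Posterior genes gave 23.9%. Against connective tissue-like cells 15 Hox genes were called higher and 11 lower of 27 tested, where 14.6% and 17.9% of all 14418 genes tested were called. Hoxb3, Hoxb6, Hoxb7, Hoxb8, Hoxb9 and Hoxd3 reached the minimum of 100 UMIs only through the endothelial-like cells, so those 6 had to be higher, and the count of 15 is no support for the pattern. The 11 lower genes reached it through the connective tissue-like cells, so that count is no support either.

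The highest endothelial-like gene was Hoxa7, at 43.3 CPM in set 1 and 36.0 in set 2, 39.2 against 5.43 CPM jointly (7.23-fold [6.21 to 8.39]). Hoxd8 was next, at 32.7 CPM in set 1 and 37.0 in set 2, 35.1 against 8.23 CPM jointly (4.27-fold [3.68 to 4.94]). Hoxa7 and Hoxd8 are central genes. Hoxb8 was at 25.8 CPM in set 1 and 25.7 in set 2, and at 25.7 against 0.0820 CPM jointly, a ratio of 314 [156 to 738] that rests on 175 against 8 UMIs. Its neighbours Hoxb6 and Hoxb7 were at 23.8 and 20.4 CPM. Hoxb4 was at 17.5 against 1.18 CPM (14.8-fold [11.4 to 19.3]).

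Of the tested genes of groups 10, 11 and 13, all but Hoxd10 were lower in these cells. Hoxc10 was at 8.97 against 31.0 CPM, 3.45-fold lower [2.68 to 4.53], and Hoxa10 at 7.64 against 26.6 CPM, 3.48-fold lower [2.64 to 4.67]. Hoxa11, Hoxc11 and Hoxd11 were lower as well, with 3, 12 and 3 UMIs, and Hoxa13 was lower with 1 UMI. Hoxd10 was higher, at 6.28 CPM in set 1 and 6.08 in set 2, 6.17 against 1.66 CPM jointly (3.72-fold [2.58 to 5.25]). The cells with the highest 6% of doublet scores were 35.4% of the class. Without them Hoxc10 fell to 3.07 CPM and Col1a1 from 1635 to 686 CPM, while Hoxa7 was at 48.0 CPM and Hoxb4 at 13.9 CPM.

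Schwann-like cells, the glia of peripheral nerve, had the largest Hoxb share of the classes. Hoxb genes gave 58% of their 150 Hox UMIs (49.7 to 66.0%), 58.8% in set 1 and 57.6% in set 2. Hoxb2 was at 6.10 CPM in set 1 and 19.1 in set 2, 13.9 against 3.22 CPM jointly (4.31-fold [2.48 to 7.02]). Hoxb4 was at 14.2 CPM in set 1 and 13.6 in set 2, 13.9 against 1.18 CPM jointly (11.8-fold [6.63 to 19.7]). These 2 of 21 tested genes were called higher and 10 lower, against 15.7% and 9.98% of all 14174 genes tested. All 21 reached the minimum of 100 UMIs through the connective tissue-like cells, so the count of 10 is no support for the pattern. With no minimum of UMIs, 9 genes were called higher. Hoxc10, with 2 UMIs in the class, was at 1.63 against 31.0 CPM, 0.0527 times the level [0.00638 to 0.191], and Hoxa10, also with 2, 0.0614 times [0.00744 to 0.222]. The posterior genes together had 29 UMIs (23.7 CPM), 25 of them of group 9. Hoxa11 and Hoxc11 had 0 UMIs and were at least 2.73-fold and 2.43-fold lower. The class has 100 cells, of which 24% were among the highest doublet scores, and without them Hoxb4 was at 13.8 CPM.

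Pericyte-like or smooth muscle-like cells, which wrap vessels, were called higher than connective tissue-like cells for 9 and lower for 0 of 21 Hox genes, against 13% and 11.4% of all 14145 genes tested. Their top gene was Hoxa9, at 36.5 CPM in set 1 and 91.9 in set 2, 61.8 against 24.5 CPM jointly (2.53-fold [1.99 to 3.17]). Hoxa10 followed at 43.6 CPM, 37.9 in set 1 and 50.3 in set 2, with no call. The others called were Hoxa3, Hoxa5, Hoxa7, Hoxb2, Hoxb4, Hoxc4, Hoxc5 and Hoxc6, at 2.31-fold to 5.12-fold, anterior and central genes each with 7 to 30 UMIs. Only 3 of the 9 were called without set 2, where Hoxa9 was 1.89-fold, Hoxb2 1.49-fold and Hoxa7 1.38-fold higher. In set 2 alone these genes were 3.09-fold, 7.41-fold and 4.43-fold higher. The posterior share was 53.9% in the pericyte-like and 23.9% in the endothelial-like cells, 110 and 243 cells. Erythroid genes summed to 43329 CPM in set 1 and 2159 in set 2 of the pericyte-like cells, and their part in the difference between the sets was not tested.

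Among the haematopoietic clusters Hoxa9 reached its highest levels in 3. In the unnamed cluster led by Ppbp and Pf4, platelet genes, together with Meis1, which works with Hoxa9 in blood progenitors, Hoxa9 was at 36.8 CPM in set 1 and 28.3 in set 2, 33.4 CPM jointly [28.1 to 39.3], and Meis1 at 154 CPM. Among the neutrophil-like clusters, the one led by Elane and Mpo, genes of immature granulocytes, had Hoxa9 at 7.22 CPM in set 1 and 29.7 in set 2, 17.7 CPM jointly [13.8 to 22.2]. In the B cell-like cluster led by Vpreb1, a gene of B cell precursors, Hoxa9 was at 16.3 CPM in set 1 and 9.22 in set 2, 12.4 CPM jointly [9.13 to 16.5]. These 3 clusters stood above the other 13, which had 0 to 5.59 CPM. Hoxa7 had the same 3 clusters on top, at 15.8, 6.53 and 8.46 CPM. Hoxc10 was at 2.13, 1.21 and 0.793 CPM in them.

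**Figure D5:**
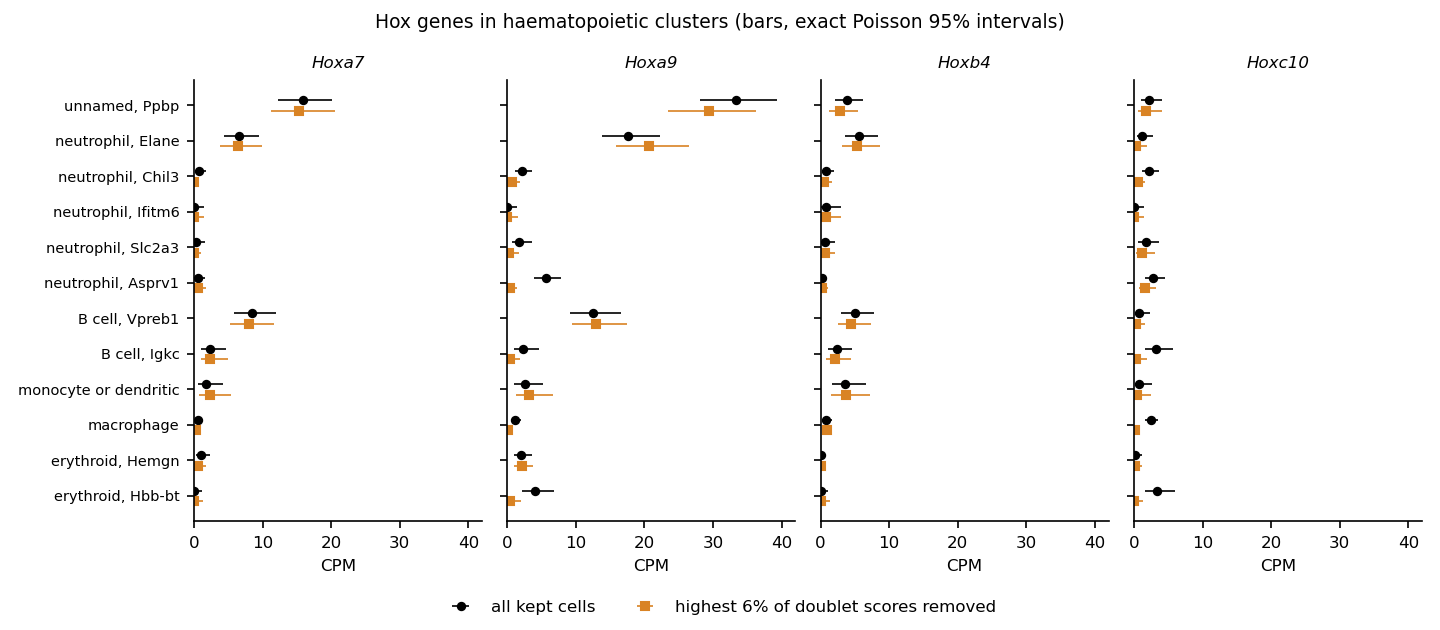
CPM (horizontal axes) of 4 Hox genes in 12 haematopoietic clusters (rows), for all kept cells (black circles) and without the highest 6% of doublet scores (orange squares), with exact Poisson 95% intervals as bars. Hoxa9 is at 33.4 CPM in the cluster led by Ppbp and at 17.7 CPM in the one led by Elane, and at most 5.59 CPM outside the 3 clusters named in the text.

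Removal of the highest 6% of doublet scores, added after the values were seen, left the Hoxa9 level of those 3 clusters at 29.3, 20.7 and 12.99 CPM. Elsewhere the level fell in several clusters: the neutrophil-like cluster led by Asprv1 went from 5.59 to 0.403 CPM, the B cell-like cluster of the Ig light chain gene Igkc from 2.34 to 0.340 CPM and the macrophage-like cells from 1.12 to 0.108 CPM. It did not fall in the erythroid-like cluster led by Hemgn (1.98 and 2.07 CPM) or in the monocyte-like or dendritic-like cells (2.52 and 3.20 CPM). Over the whole macrophage-like class the posterior genes went from 7.07 to 0.971 CPM and Col1a1 from 1160 to 49.6 CPM. Over all kept cells the blood-like classes had the following leading pairs. Neutrophil-like cells had Hoxa9 (5.63 CPM) and Hoxc10 (1.82 CPM), B cell-like cells Hoxa9 (7.63) and Hoxa7 (5.55), and erythroid-like cells Hoxa9 (2.07) and Hoxc9 (1.73). Macrophage-like cells had Hoxc10 (2.42) and Hoxa10 (1.86), and monocyte-like or dendritic-like cells Hoxb4 (3.60) and Hoxa9 (2.52). Without the highest 6% of doublet scores these pairs were at 3.59 and 0.833 CPM in neutrophil-like and 7.11 and 5.37 in B cell-like cells. They were at 1.11 and 0.185 CPM in erythroid-like, 0.216 and 0.108 in macrophage-like and 3.66 and 3.20 in monocyte-like or dendritic-like cells. In mast cell-like and T or NK cell-like cells Hoxa10 and Hoxa9 led with 2 to 5 UMIs each.

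To compare cells of different depth, each was thinned to 2000 UMIs, and shallower cells were left out. At that depth 30.4% of connective tissue-like cells had a UMI of any Hox gene and 22.5% (21.3 to 23.7%) one of a posterior gene, 18.6% in set 1 and 25.8% in set 2, with 29 of 5025 cells too shallow. Without thinning the posterior share was 72.1%. In macrophage-like cells, taken as a comparison for free RNA, the thinned share was 0.404% and the unthinned 3.55%, at a median depth of 10544 against 15128 UMIs. Muscle progenitor-like cells reached 33.7%, synovial lining fibroblast-like cells 31.4% and tenocyte-like cells 30.05%. The chondrocyte-like share was 20.9%, the fibroblast-like 20.6% and the osteoblast-like 17.97%. Within the fibroblast-like class it was 30.5% in the Abca8a cluster and 7.62% in the Csf2 cluster. A UMI of Hoxb4 to Hoxb9 was found in 21.6% of endothelial-like cells and in 10% of Schwann-like cells, but in 0 of 1327 muscle progenitor-like cells, which allows a share of up to 0.226%. No Schwann-like cell of 100 had a posterior UMI at this depth, which allows up to 3%, while 15 of the 100 had one without thinning. Zero limits in these data bound cells with a UMI, not cells that express a gene.

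At 2000 UMIs, 69.6% of connective tissue-like cells had no Hox UMI, 23.7% had 1 Hox gene and 5.60% had 2. Without thinning, 19.1% had none, and the median was 2 Hox genes per cell with a maximum of 15. A UMI of group 9 and of group 10 met in 82 of 4996 cells, where the product of the 2 shares gives 56.9. Groups 10 and 11 met in 23 cells against 18.5 by the product, and groups 9 and 11 in 16 against 14.99. These cells differ in type and in barcode set, both of which move the levels, so the excess is a description.

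Of the noncoding genes of the complexes the list holds 10, and Hotairm1 and Hoxa11os had the most UMIs in the kept cells, 910 and 898. Hotairm1, a transcript from the anterior end of the Hoxa complex, was at 34.1 CPM in set 1 and 36.0 in set 2 of the endothelial-like cells, 35.1 CPM jointly, against 4.62 CPM in connective tissue-like and 0.553 CPM in blood-like cells. Hoxa11os, antisense to Hoxa11, was at 10.1 CPM in synovial lining fibroblast-like, 9.49 in chondrocyte-like, 8.21 in tenocyte-like, 4.47 in osteoblast-like and 3.36 CPM in fibroblast-like cells. Hoxa11 had the same order, at 18.1, 10.8, 7.05, 5.05 and 3.49 CPM. The sources used here do not say whether the counting used strand. Whether reads of a gene and its antisense partner were counted apart is thus not known from them. The next 4 genes were picked after their values were seen. Hoxd3os1 was at 35.5 CPM in skeletal myofibre-like and 27.0 CPM in endothelial-like cells, and Hoxb3os at 22.9 CPM in Schwann-like and 19.8 CPM in pericyte-like cells. Hotair, a transcript of the Hoxc complex, was at 3.51 CPM in muscle progenitor-like against 0.441 CPM in connective tissue-like cells. Hottip, from the end of the Hoxa complex next to Hoxa13, had 1 UMI in all kept cells.

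The genes that set hindlimb or forelimb identity were taken as a list of 4. Pitx1, which makes a limb a hindlimb, was at 33.2 CPM in set 1 and 36.9 in set 2 of the connective tissue-like cells, 35.1 CPM jointly against 1.30 CPM in blood-like cells (26.9-fold [21.4 to 34.4]). Tbx4, a T-box gene of the hindlimb, was at 12.98 against 0.892 CPM (14.6-fold [10.97 to 19.7]), and Isl1, an early hindlimb gene, at 1.63 against 0.143 CPM (11.4-fold [5.66 to 26.9]). Tbx5, the forelimb counterpart of Tbx4, was at 2.47 against 0.196 CPM (12.6-fold [6.91 to 25.6]). All 4 of 4 genes were called higher, against 31.5% of all genes tested, but each had fewer than 100 UMIs in blood-like cells and reached the minimum through the connective tissue-like side. By class, Pitx1 was at 59.8 CPM in synovial lining fibroblast-like, 56.98 in tenocyte-like, 50.6 in chondrocyte-like, 30.3 in osteoblast-like and 17.1 CPM in fibroblast-like cells. Tbx5 was at 1.76 CPM in set 1 and 8.92 in set 2 of the synovial lining fibroblast-like cells, 6.51 CPM jointly, and at 0 in osteoblast-like cells. Pericyte-like cells had 0 UMIs of all 4. Muscle progenitor-like and endothelial-like cells were called lower than connective tissue-like cells for all 4, where 19.7% and 17.9% of all genes tested were lower. In those classes too, each gene had fewer than 100 UMIs and reached the minimum through the connective tissue-like side. So these counts are no support for the pattern. Pitx1 was at 4.49 CPM in the muscle progenitor-like cells, in which Hoxa9 was at 64.996 CPM.

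Of 9 TALE genes, whose proteins bind DNA with Hox proteins, 3 were higher in connective tissue-like than in blood-like cells (Meis1, Meis2 and Meis3) and 1 was lower (Pbx2), against 31.5% and 20.3% of all genes, so the count of higher genes is near the background and is no result about the list. Pbx3 was called in neither direction, at 39.2 against 33.5 CPM. All 18 tested limb patterning genes of the list were higher, against the same 31.5% of all genes. Prrx1, Prrx2, Shox2, Tbx15, Twist1 and Gli3 alone had 100 UMIs or more in blood-like cells. Its top genes by UMIs, Prrx1 and Twist1, early limb mesenchyme genes, were at 247 against 14.5 CPM and 96.6 against 4.28 CPM. Of 16 tested Polycomb and Trithorax genes, which keep Hox complexes silent or active, 1 was higher (Pcgf2) and 3 were lower, Ezh2 and Cbx7 among them, against 31.5% and 20.3% of all genes, which puts the lower count near the background. Kmt2a and Suz12, the 2 with the most UMIs, were at 80.4 against 73.4 CPM and 53.6 against 103 CPM, without a call. Cdx1, Cdx2 and Cdx4, activators of central Hox genes in the embryo, had 10, 4 and 1 UMIs in the kept cells and were not tested.

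The barcode sets differed in the Hox level of the connective tissue-like cells. Of 21 tested genes, 18 had a higher CPM in set 2 and none differed by 2-fold, with a median log2 ratio of 0.37 for set 2 over set 1. Over all 14060 genes tested, 48.1% were higher in set 2 and the median was -0.01. The ratio ran from 0.634 for Hoxd4 to 1.82 for Hoxa13. The sets also differ in the make-up of the pool: the Abca8a fibroblast-like cluster was 6.72% of the cells of set 1 and 10.4% of set 2, and the Csf2 cluster 7.25% and 5.99%. Whether the cells' genotype or the experiment goes with the difference cannot be told apart, and the part of this make-up in it was not tested.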

How the data were processed

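The deposited values are UMI counts per gene and barcode in 1 merged matrix, made by the authors with Cell Ranger 7.0.0 on mm10 from Single Cell 3' v3 libraries, per the labels' protocols and the submitters' processing notes. The sources used here do not say if intronic reads counted. Cells were filtered as the report states, scaled to 10000 UMIs per cell and clustered in scanpy 1.11.5 with leidenalg 0.10.2 (2000 variable genes, 30 principal components, 15 neighbours, resolution 1, seed 1). The Hox genes and related lists were among 936 genes left out of the clustering. Clusters were named with at least 3 markers of a class at a log2 fold of 1 or more. Counts were summed per class and barcode set (numpy 2.4.6, scipy 1.17.1, pandas 2.3.3, python 3.11.15), and the scripts were tested on simulated data. Replicates were not compared, because barcodes could not be tied to samples.

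The members and lists were chosen with earlier results of these data known. Named in full were the top 3 genes of each complex by connective tissue-like UMIs, groups 10, 11 and 13, the top 2 Hox genes of each other class, the limb identity genes and the top 2 genes of each other list. Some genes that this rule names are not reported here. Any other gene given with values was chosen after its values were seen. Alternatives covered cell filters, clustering, call thresholds, thinning, doublets and each barcode set.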

Additional observations from a re-analysis of the deposited data

How the results depend on the processing

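The 20 alternative settings moved 90 of 512 summary values. Of 2047 values of the 134 called pairs of gene and comparison, 1852 kept their call, 191 lost it and 4 reversed, and 55 pairs were called in every setting run. The reversed values were all osteoblast-like: Hoxc8 at 1.12 with at least 1000 genes and 2000 UMIs and at 1.29 at resolution 0.5, and Hoxd4 at 1.40 and Hoxd11 at 1.73 at resolution 0.5. The posterior level of connective tissue-like cells was 113 CPM from 200 genes and 500 UMIs on, 111 with at most 5% mitochondrial UMIs, 112.3 at resolution 0.5, 117 at resolution 2, 112.8 with 15 principal components, 112.4 with Hox genes allowed in the clustering, 113.1 with another seed, 113.4 with called doublets kept, 111.5 without the highest 6% of doublet scores and 112.6 with the Il1rl1 cluster added. The blood-like posterior level was 8.61 CPM (200 genes), 11.6 (1000 genes), 12.3 (resolution 0.5), 12.1 (resolution 2), 11.9 (15 components), and without the highest 6% of scores 2.97 after new clustering and 4.21 with clusters kept, where the endothelial-like posterior share was 20.4% and 20.6%. Without set 1 and without set 2 these values were 140.1 and 105.6 CPM (connective tissue-like), 252 and 195 CPM (muscle progenitor-like), 2.99 and 2.07 CPM (Hoxb4 to Hoxb9 in connective tissue-like cells) and 22.02% and 26.3% (endothelial-like share), and the connective tissue-like share was 65.7% without set 2. The share of cells with a posterior UMI was 12.2% at 1000 UMIs, 72.1% not thinned, 25.8% without set 1 and 18.6% without set 2 in connective tissue-like cells, and 19.1%, 80.4%, 36.4% and 27.4% in muscle progenitor-like cells. That of Hoxb4 to Hoxb9 in endothelial-like cells was 8.64% at 1000 UMIs and 65.4% not thinned. Counts of called Hox genes moved as follows. Higher in tenocyte-like cells (1) became 0 with 15 components, at resolution 2 or without set 1, 2 from 200 genes on, with Hox genes allowed, another seed or the highest 6% of scores removed, 3 with called doublets kept, no minimum of UMIs or without set 2, and 8 at a ratio of 1.5, and lower (0) became 1 from 1000 genes on. Higher in osteoblast-like cells (0) became 1 from 200 genes on, at resolution 2, a ratio of 1.5, with the Il1rl1 cluster added or without set 2, and lower (6) became 3 from 1000 genes on and 0 at resolution 0.5. Higher in fibroblast-like cells (2) became 1 with called doublets kept, the highest 6% of scores removed, at resolution 2, with the Il1rl1 cluster added or without set 2, and lower (6) became 3 without either set. Higher in chondrocyte-like cells (4) became 1 from 1000 genes on, at resolution 2 or without set 2 and 2 without set 1, and lower (4) became 8 with no minimum or a ratio of 1.5. Higher in synovial lining fibroblast-like cells (6) became 3 without either set, and lower (3) became 1 without set 2. Higher in connective tissue-like against blood-like cells (20) became 31 with no minimum, in muscle progenitor-like cells (6) 12 at a ratio of 1.5, in endothelial-like cells (15) 9 without set 1 and 7 without set 2, in pericyte-like cells (9) 3 without set 2, in Schwann-like cells (2) 9 with no minimum, 1 without set 1 and 0 without set 2, in skeletal myofibre-like cells (2) 1 without set 1, and in the Msmp cluster (6) 2 without set 1. Lower became 2 without set 1 and 1 without set 2 in muscle progenitor-like cells (4), 1 with at most 5% mitochondrial UMIs in pericyte-like cells (0), 4 without set 2 in Schwann-like cells (10), and 4 from 1000 genes on, 4 at resolution 2 and 1 without set 2 in skeletal myofibre-like cells (7). Without 1 set, Hoxa13, Hoxb4, Hoxd4 and Hoxd10 were under the minimum of UMIs in connective tissue-like cells and could not be called in its classes. They had 43, 54, 64 and 93 UMIs in set 1 and 77, 61, 40 and 69 in set 2. The synovial lining fibroblast-like ratios of Hoxa13, Hoxd4 and Hoxd10 were 11.8, 2.29 and 18.9 without set 1 and 3.17, 3.58 and 13.1 without set 2. The fibroblast-like ratio of Hoxb4 was 4.77 without set 1 and 2.85 without set 2. Other calls were lost on the ratio, as for Hoxa11 in chondrocyte-like cells without set 2 (1.47). For the rest, why a call was lost or reversed was not tested. Tenocyte-like cells at resolution 0.5 and osteoblast-like cells with 15 components gave no class and were not run. No paired analysis was possible because no barcode could be tied to a sample.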
